A study of Rattus norvegicus with 24 samples.

Results

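The genes described here are 35 genes of the striated muscle sarcomere and of the calcium machinery that drives it, measured in the rat urethra. The members were chosen by gene name: thin and thick filament proteins, Z disc proteins, calcium handling proteins, and a few genes of energy and oxygen supply in the fibre. Of the 35 genes, 32 were found by symbol among the 32883 genes of the table, and all 32 were among the 16287 genes tested, which had a mean of at least 2 normalized counts per sample. Ttn, Tcap and Atp2a1 were not analysed here.

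The series compared the urethra of wild-type female rats after simulated vaginal delivery (SVD). Young adult virgin Sprague-Dawley rats underwent pudendal nerve crush and vaginal distension, and all 6 groups carried this injury. They then received an intra-aortic injection of saline, of allogeneic mesoangioblasts (MABs allo), or of the same cells made to overexpress VEGF (MABs allo-VEGF). Mesoangioblasts are vessel-associated progenitor cells. Here they formed 1 line from the hind-limb muscle of another rat, carried eGFP and luciferase by lentivirus and, in the VEGF arm, expressed VEGF together with a truncated CD34 under the SFFV viral promoter. Tissue was taken at 3d or 7d, with 4 samples in each group and 24 in all, and no uninjured urethra was among them. RNA was measured by 3' mRNA-seq, and the values are gene counts divided by a size factor of each sample. Sample values are always given in the order saline 3d 6, 8, 9 and 10, MABs allo 3d 1, 2, 3 and 4, MABs allo-VEGF 3d 1, 2, 3 and 4, saline 7d 1, 2, 3 and 5, MABs allo 7d 7.2, 9, 11 and 13, and MABs allo-VEGF 7d 6, 7, 11 and 12.

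In a striated fibre, myosin of the thick filament pulls on actin of the thin filament, and the filaments are anchored in the Z disc and held in register by the M band. A nerve impulse is sensed by the calcium channel of the T tubule, the ryanodine receptor opens, and calcium released from the sarcoplasmic reticulum binds troponin C and frees actin for myosin. Fast and slow fibres use separate genes for many of these parts. In the urethra such fibres form the external sphincter, which lies around the smooth muscle of the wall and is innervated by the pudendal nerve.

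The libraries held 2170695 to 10166052 reads, and those of the 3d cell groups were the shallowest, at 2170695 to 4491900. Counting noise was exceeded between all 36 pairs of samples within groups, so no library counted as a copy of another. The labels do not say whether the samples of a group were separate rats, so p-values measure the spread between these samples, which may be technical. Striated fibre RNA was present in all 24 libraries: Myh4, the fast IIb myosin heavy chain, ranged from 5864 to 72811 normalized counts. Of 8 cardiac marker genes, Myh6, Nppa, Nppb, Myl7 and Mybpc3 were at most 23.2 and Tnni3 at most 57.9 in each library, whereas Myl4 ranged from 545 to 4322 and Tnnt2 from 286 to 3734. Myl4 and Tnnt2 are also expressed in embryonic skeletal muscle. The sum of the 8 genes was 1019 to 4480 in saline 3d and 1754 to 7314 in MABs allo 3d. Smooth muscle RNA was low in saline 3d 8, which had 3387 counts of Myh11, 361 of Cnn1 and 337 of Actg2, the lowest value of each of these 3 genes among the 24 libraries. The next lowest Myh11 value was 17552. Saline 3d 6 and MABs allo-VEGF 3d 4 stood apart from their groups in another RNA, as given beside the results at 3d.

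At 3d after SVD, 11 of the 32 genes were called higher in MABs allo than in saline and none lower. To be called, a gene had to differ by more than 1 on the log2 scale with an adjusted p under 0.05. The 11 genes were Neb, Tpm3, Tnnt3, Tnnt1 and Tnni1 of the thin filament, Mylpf, Mybpc1, Myom1 and Myom2 of the thick filament and M band, and Cacna1s and Ryr1 of calcium release. Over all genes tested, 9.4% were called higher in this comparison. The log2 fold change was above 0 in 30 of the 32 members, with a median of 1.34, against a median of 0.07 and 52.9% above 0 over all genes. In bulk tissue, more fibres in a sample and more RNA of a gene in each fibre cannot be told apart. The tests used limma on log2(normalized count + 1) across all genes, with Benjamini-Hochberg adjustment. A fold change on that scale is a difference of mean logs. In low genes it depends on the added 1 and on samples with few reads.

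**Figure D1:**
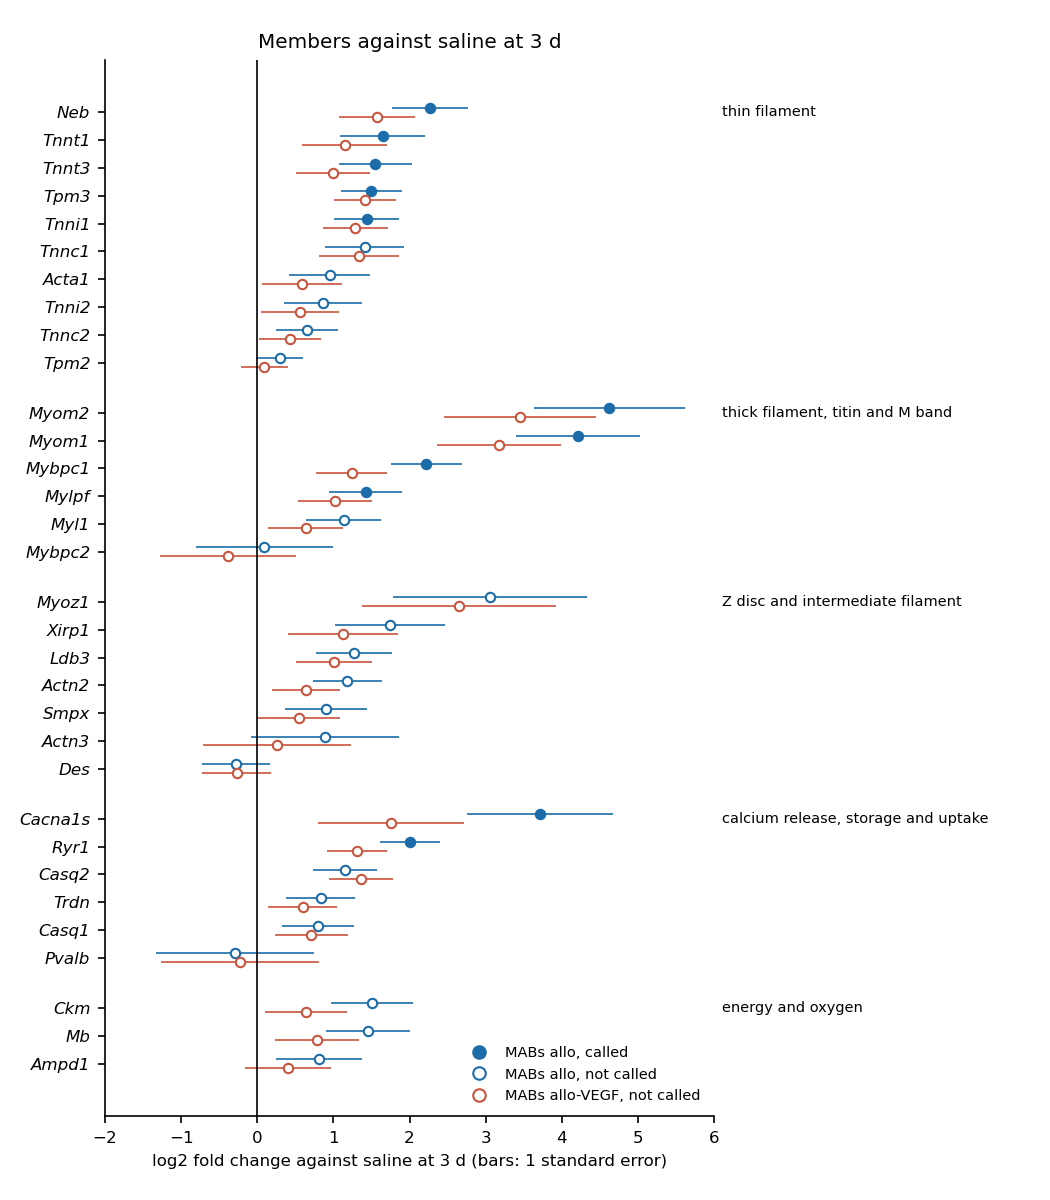
Log2 fold change of each of the 32 members against saline at 3d, on the log2(normalized count + 1) scale, with bars of 1 standard error, grouped by role. Blue is MABs allo and red is MABs allo-VEGF, and filled points passed the test. The 11 filled points are all MABs allo, from Mylpf at 1.42 to Myom2 at 4.62, while Des and Pvalb lie below 0 in both cell groups.

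The thin filament contributed 10 genes, all with a log2 fold change above 0, and 5 were called. Nebulin, encoded by Neb, is the giant protein that runs along the thin filament and sets its length. Neb counts at 3d were 8777, 6942, 10285 and 37816 in saline, 45476, 33821, 73041 and 114810 in MABs allo and 73542, 37905, 35229 and 18977 in MABs allo-VEGF. Only saline 3d 10 reached into the range of the MABs allo samples. Neb in MABs allo had a log2 fold change of 2.27 ± 0.50 (SE), adjusted p = 0.0087. Tpm3 encodes the slow fibre tropomyosin, the rod that blocks or exposes the myosin sites on actin, and is also expressed in non-muscle cells. Its counts were 3368, 447, 1169 and 1401 in saline, 3699, 3901, 3951 and 2761 in MABs allo and 3320, 5576, 4107 and 1648 in MABs allo-VEGF. Saline 3d 6 was the highest saline sample and overlapped both cell groups. The log2 fold change of Tpm3 was 1.498 ± 0.40 (SE), adjusted p = 0.0186, and the largest adjusted p on leaving out a sample was 0.0937. Tpm2, the beta tropomyosin shared with other muscle, gave 28593, 28966, 34083 and 43911 in saline, 19220, 42902, 58529 and 58061 in MABs allo and 40288, 32746, 37752 and 32001 in MABs allo-VEGF. All 4 saline values lay inside the range of MABs allo, and its log2 fold change was 0.29 ± 0.31 (SE), adjusted p = 0.541. Acta1, the skeletal alpha actin, gave 13828, 56027, 25724 and 72658 in saline, 25710, 64041, 94643 and 129160 in MABs allo and 68043, 60908, 44754 and 40065 in MABs allo-VEGF. Saline and MABs allo overlapped and the gene was not called, at 0.95 ± 0.53 (SE), adjusted p = 0.22.

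The troponin complex places calcium control on the thin filament: troponin T ties it to tropomyosin, troponin I inhibits myosin binding and troponin C binds calcium. Tnnt3, the fast troponin T, gave 8416, 19390, 6669 and 26147 in saline, 17140, 33640, 60495 and 60274 in MABs allo and 38845, 32954, 23454 and 15014 in MABs allo-VEGF. Tnnt1, the slow troponin T, gave 2565, 949, 6937 and 16015 in saline, 9138, 17069, 9112 and 18281 in MABs allo and 15216, 6784, 7305 and 8638 in MABs allo-VEGF. Saline 3d 10 lay inside the range of the MABs allo samples in both genes, and saline 3d 8 did so in Tnnt3. Both were called in MABs allo, Tnnt3 at 1.55 ± 0.48 (SE), adjusted p = 0.0345, and Tnnt1 at 1.65 ± 0.56 (SE), adjusted p = 0.0481. Tnni1, the slow troponin I, gave 1426, 788, 1462 and 4357 in saline, 2137, 5444, 6028 and 5539 in MABs allo and 4358, 3626, 4369 and 3709 in MABs allo-VEGF. MABs allo 3d 1 lay among the saline samples and the other 3 MABs allo samples above all 4 of them. Tnni1 had a log2 fold change of 1.44 ± 0.43 (SE), adjusted p = 0.0275. Tnni2, the fast troponin I, gave 4084, 15592, 6658 and 25854 in saline, 6113, 20001, 28221 and 34442 in MABs allo and 20433, 15560, 12769 and 12823 in MABs allo-VEGF. Tnnc1, the slow and cardiac troponin C, gave 868, 337, 2001 and 4892 in saline, 1775, 4957, 3969.6 and 4134 in MABs allo and 4174, 2517, 3859 and 2868 in MABs allo-VEGF. Tnnc2, the fast troponin C, gave 10113, 14663, 22493 and 33906 in saline, 11580, 29750, 38616 and 51161 in MABs allo and 28009, 20428, 22914 and 28884 in MABs allo-VEGF. In each of these last 3 genes the lowest MABs allo sample was below at least 2 saline samples, and none of the 3 was called. Their log2 fold changes were 0.86 for Tnni2, 1.41 for Tnnc1 and 0.65 for Tnnc2, with adjusted p-values of 0.257, 0.0673 and 0.284.

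With all samples, the M band genes had the largest fold changes of the 32. Myomesin 1 (Myom1) and myomesin 2 (Myom2) cross-link neighbouring thick filaments in the middle of the sarcomere. Myom1 counts at 3d were 196, 3.92, 107 and 222 in saline, 1086, 1056, 1763 and 1362 in MABs allo and 1233, 483, 959 and 267 in MABs allo-VEGF. All 4 MABs allo samples were above all 4 saline samples, the nearest being 1056 against 222. The log2 fold change of Myom1 was 4.21 ± 0.81 (SE), adjusted p = 0.00665. Myom2 counts were 65.4, 0, 17.9 and 38.7 in saline, 142, 476, 1339 and 201 in MABs allo and 227, 258, 262 and 44.5 in MABs allo-VEGF. Again no MABs allo sample overlapped saline, although saline 3d 6 stood closest with 65.4. For Myom2 the log2 fold change was 4.62 ± 0.996 (SE), adjusted p = 0.00791. Saline 3d 8 held 1 read of Myom1 and 0 of Myom2. It is among the 4 libraries described below for Actn3 and Mybpc2. Without those 4 libraries Cacna1s had the largest log2 fold change, at 3.81, with Myom2 at 3.61 and Myom1 at 2.91.

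Mybpc1 and Mybpc2 encode what are named the slow and the fast myosin-binding protein C, a thick filament protein that modulates cross-bridges. Mybpc1 counts were 1698, 2552, 1090 and 5465 in saline, 7540.3, 7626, 16405 and 12949 in MABs allo and 7143, 7043, 6226 and 2574 in MABs allo-VEGF. MABs allo lay above saline in all 4 samples, and the log2 fold change was 2.22 ± 0.47 (SE), adjusted p = 0.00721. Mybpc2 counts were 158, 1411, 64.3 and 211 in saline, 163, 65.7, 268 and 1378 in MABs allo and 97.3, 350.1, 141 and 218 in MABs allo-VEGF. Saline 3d 8 and MABs allo 3d 4 stood apart with 1411 and 1378 counts, and the other 10 samples at 3d had at most 350.1. Mybpc2 in MABs allo had a log2 fold change of 0.09 ± 0.90 (SE), adjusted p = 0.957, and of -0.09 without saline 3d 6 and MABs allo-VEGF 3d 4. Mylpf, the fast regulatory myosin light chain, gave 12234, 17670, 7666 and 27695 in saline, 12603, 56661, 55649 and 59732 in MABs allo and 33492, 37280, 30906 and 20028 in MABs allo-VEGF. Of the MABs allo samples, 3 were above every saline sample and MABs allo 3d 1 was within their range, and the log2 fold change was 1.42 ± 0.48 (SE), adjusted p = 0.0483. Myl1, the fast essential light chain, gave 11452, 34120, 14585 and 48260 in saline, 20065, 49921, 88098 and 73115 in MABs allo and 53028, 39572, 35128 and 21880 in MABs allo-VEGF. Its log2 fold change was 1.14 ± 0.49 (SE), adjusted p = 0.115, with saline 3d 10 close to MABs allo 3d 2.

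**Figure D2:**
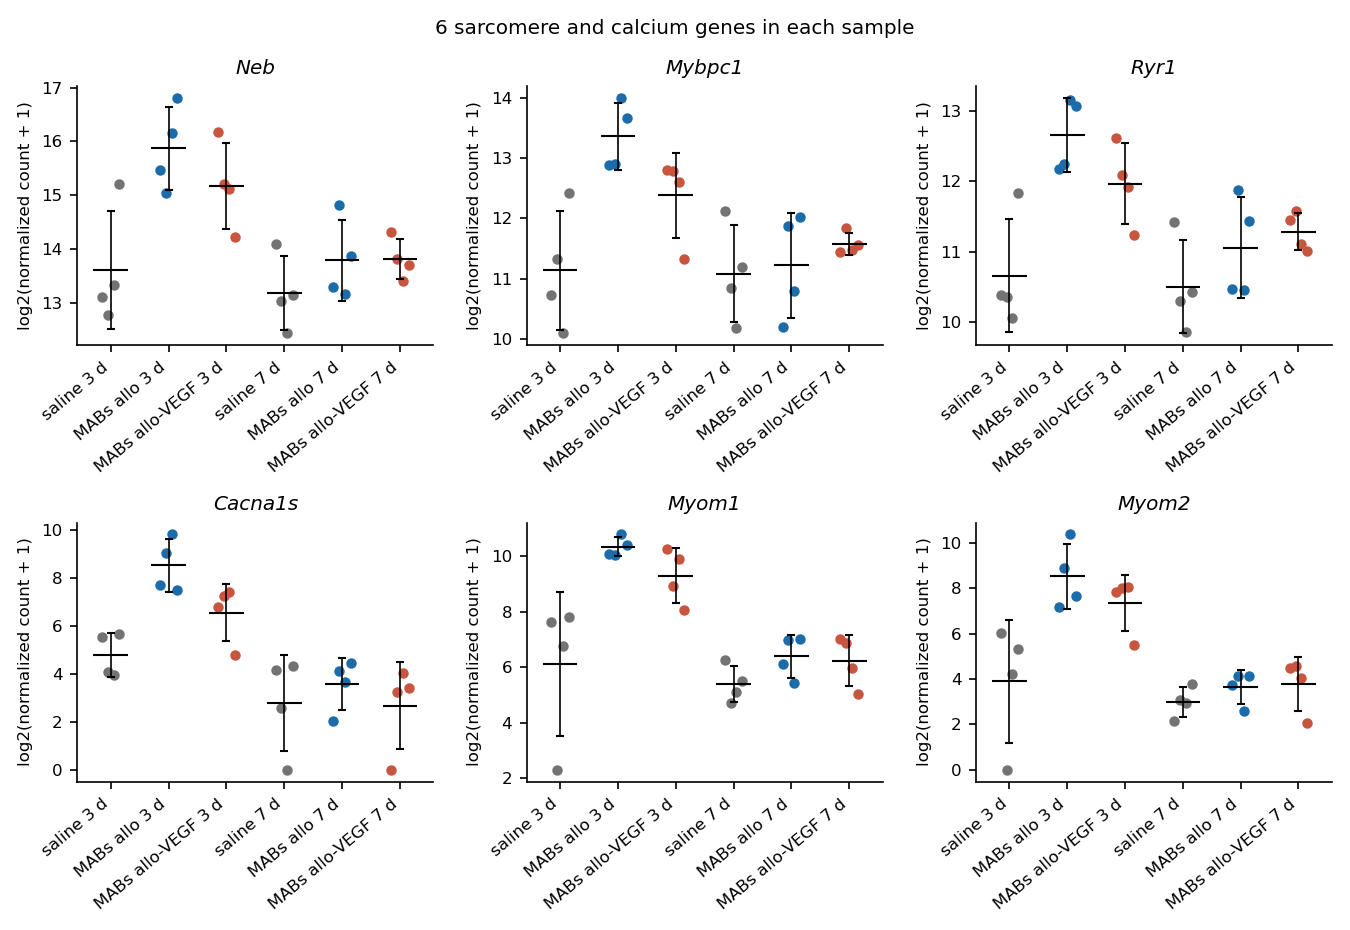
Log2(normalized count + 1) of 6 members in each of the 24 samples, by group. Points are samples, the horizontal line is the group mean and the bar is 1 SD (n = 4). Mybpc1, Ryr1, Cacna1s, Myom1 and Myom2 show all 4 MABs allo 3d points above the 4 saline 3d points, while saline 3d 10 reaches the lowest MABs allo 3d points in Neb.

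None of the 7 Z disc and intermediate filament genes was called in MABs allo at 3d, with log2 fold changes from -0.28 to 3.06. Des encodes desmin, the intermediate filament that links Z discs and is shared by smooth muscle. Its counts were 9996, 7044, 25763 and 26611 in saline, 4849, 15521, 10912 and 27091 in MABs allo and 13091, 7459, 10852 and 21448 in MABs allo-VEGF. The saline values lay inside the range of MABs allo, and the log2 fold change was -0.28 ± 0.45 (SE), adjusted p = 0.706. Without MABs allo 3d 1 it was above 0, as it was in all 32 members. Actn3, the fast fibre alpha-actinin that cross-links actin at the Z disc, gave 107, 1066, 32.2 and 28.2 in saline, 106, 65.7, 175 and 1036 in MABs allo and 70.3, 192, 80.7 and 200.4 in MABs allo-VEGF. As in Mybpc2, saline 3d 8 and MABs allo 3d 4 stood far above the other samples, and the log2 fold change was 0.89 ± 0.97 (SE), adjusted p = 0.56. Actn2, the alpha-actinin of all striated fibres, had a log2 fold change of 1.19 ± 0.45 (SE), adjusted p = 0.0733. Ldb3, a PDZ and LIM protein of the Z disc, had 1.27 (adjusted p = 0.0837), and Xirp1, an actin-binding repeat protein, 1.74 (adjusted p = 0.101). Smpx, a small muscle protein, gave 441, 1027, 482 and 1513 in saline, 405, 1712, 2123 and 2756 in MABs allo and 1600.5, 1134, 1145 and 730.2 in MABs allo-VEGF. Its log2 fold change was 0.90 ± 0.54 (SE), adjusted p = 0.259, with MABs allo 3d 1 below every saline sample. Myoz1, which binds calcineurin at the Z disc, was close to the limit of detection: its reads at 3d were 0, 0, 0 and 4 in saline, 0, 8, 10 and 3 in MABs allo and 2, 2, 1 and 4 in MABs allo-VEGF. Its log2 fold change of 3.06 ± 1.27 (SE), adjusted p = 0.102, rests on these reads.

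Calcium release contributed 2 called genes, the 2 channels of the triad. Cacna1s encodes the pore of the T tubule calcium channel, which senses voltage. Its counts were 44.8, 15.7, 14.3 and 49.3 in saline, 206, 525, 895 and 179 in MABs allo and 108, 150, 166 and 26.7 in MABs allo-VEGF. The 4 MABs allo samples lay above saline, with 179 as their lowest against 49.3 as the highest saline value, and the log2 fold change was 3.72 ± 0.96 (SE), adjusted p = 0.0157. Ryr1, the ryanodine receptor through which the sarcoplasmic reticulum releases calcium, gave 1339.5, 1305, 1061 and 3656 in saline, 4601, 4869, 9158 and 8593 in MABs allo and 6294, 4359, 3885 and 2404 in MABs allo-VEGF. MABs allo lay above saline in all 4 samples, and the log2 fold change was 2.005 ± 0.40 (SE), adjusted p = 0.00665. Casq1 and Casq2 encode the fast and the slow calsequestrin, which store calcium beside that channel. Casq1 gave 499, 1415, 597 and 1650.4 in saline, 710, 1389.6, 2114 and 3059.6 in MABs allo and 1784, 1842, 1170.4 and 1305 in MABs allo-VEGF. Casq2 gave 1725, 263, 989.9 and 1714 in saline, 1193, 3266, 2649.5 and 1834 in MABs allo and 2119.6, 2359, 2497 and 2707 in MABs allo-VEGF. Both sets of samples overlapped and neither gene was called, at log2 fold changes of 0.80 (adjusted p = 0.258) and 1.15 (adjusted p = 0.0655). Trdn encodes triadin, which anchors calsequestrin to the ryanodine receptor, and had a log2 fold change of 0.83 ± 0.45 (SE), adjusted p = 0.213. Pvalb encodes parvalbumin, the soluble calcium buffer of fast fibres, and is also a neuronal gene. Its counts were 238, 8498, 218 and 873 in saline, 163, 169.6, 1819 and 3369 in MABs allo and 989.5, 1525, 227 and 606 in MABs allo-VEGF. Saline 3d 8 exceeded every other 3d sample, and the log2 fold change was -0.29 ± 1.04 (SE), adjusted p = 0.875. Without the 4 libraries described below for Actn3 and Mybpc2 it was 0.05.

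Of the energy and oxygen genes, none of 3 was called. Ckm, the muscle creatine kinase that regenerates ATP, gave 1594, 4950.5, 2148 and 8674 in saline, 3302, 8524, 19636 and 17441 in MABs allo and 7197, 6668, 5136 and 3549 in MABs allo-VEGF. Mb, which encodes the oxygen-binding myoglobin, gave 778, 3269, 1365 and 4842 in saline, 2244, 5208, 10303 and 7812 in MABs allo and 6445, 4292, 4011 and 1331 in MABs allo-VEGF. Of the 4 MABs allo samples, 2 exceeded the highest saline sample in Ckm and 3 in Mb. The log2 fold changes were 1.51 (adjusted p = 0.0598) for Ckm and 1.45 (adjusted p = 0.0758) for Mb. Ampd1, the muscle AMP deaminase, had a log2 fold change of 0.81 ± 0.56 (SE), adjusted p = 0.335.

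The promoters are shown for 4 members. Mybpc1 and Cacna1s are 2 of the 11 called in MABs allo, and Mybpc2 and Actn3 followed 4 libraries from 4 groups. These 4 do not stand for the members as a set. RefSeq promoter windows on build GRCr8 were matched by symbol for 30 of the 35 genes, and the 250 bases before the start are printed 5′ to 3′. Capitals mark E boxes, CANNTG, the letters bound by myogenic regulatory factors among others. CANNTG reads the same on both strands, and CAGCTG is one of its forms.
Mybpc1, chr7:24903374-24903623, minus strand: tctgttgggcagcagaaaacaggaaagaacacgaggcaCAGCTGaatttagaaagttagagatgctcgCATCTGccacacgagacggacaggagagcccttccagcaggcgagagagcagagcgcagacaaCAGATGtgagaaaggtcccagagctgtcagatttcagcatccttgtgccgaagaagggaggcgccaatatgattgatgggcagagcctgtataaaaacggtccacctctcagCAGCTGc
Cacna1s, chr13:50045418-50045667, plus strand: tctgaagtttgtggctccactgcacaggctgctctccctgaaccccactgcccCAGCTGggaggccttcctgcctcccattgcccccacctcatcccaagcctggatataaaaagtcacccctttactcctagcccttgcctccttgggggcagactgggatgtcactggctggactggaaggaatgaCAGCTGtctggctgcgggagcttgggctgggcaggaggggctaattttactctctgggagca
Mybpc2, chr1:104154102-104154351, minus strand: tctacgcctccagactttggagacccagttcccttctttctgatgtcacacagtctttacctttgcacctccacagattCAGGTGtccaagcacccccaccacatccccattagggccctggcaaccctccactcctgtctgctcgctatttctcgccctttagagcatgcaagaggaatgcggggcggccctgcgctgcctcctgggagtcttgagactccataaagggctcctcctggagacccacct
Actn3, chr1:211604402-211604651, minus strand: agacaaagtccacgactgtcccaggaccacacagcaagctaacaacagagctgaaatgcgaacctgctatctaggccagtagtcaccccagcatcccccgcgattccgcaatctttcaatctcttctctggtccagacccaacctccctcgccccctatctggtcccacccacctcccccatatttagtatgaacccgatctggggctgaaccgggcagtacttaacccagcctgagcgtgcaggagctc
Mybpc1 held 4 CANNTG matches and Cacna1s 2, of which 2 in each were CAGCTG. Ckm, which was not called, was the only other member with 2 CAGCTG. Mybpc2 held 1 match and Actn3 none. Over the 33469 windows of the same length, 65.5% held CANNTG and 12% held CAGCTG. Among the 30 members with a window, where the first window was taken for the 3 genes with more than 1, CAGCTG stood in 8 and CANNTG in 25. Whether CAGCTG goes with the calls in MABs allo at 3d was not tested. It stood in Mybpc1, Cacna1s and Tpm3, which were called, in Acta1, Des, Casq1 and Ckm, which were not, and in Atp2a1, which was not analysed. The called Neb, Tnnt1, Tnni1, Myom1 and Ryr1 held none, and the called Tnnt3, Mylpf and Myom2 had no window. The motifs are matches of letters and not measured binding sites.

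The calls in MABs allo at 3d differed in how far they depended on single samples and settings. Neb, Mybpc1, Myom1, Myom2 and Ryr1 were called in each of the 8 fits that left out 1 sample of the 2 groups. The call was lost in 2 of 8 fits for Cacna1s, 3 for Tpm3, 5 for Tnnt3 and for Tnni1, 6 for Mylpf and 7 for Tnnt1. The count was 5 without saline 3d 8, against 1.89% of all genes, and 5 without MABs allo 3d 3, against 4.54%. It was 7 without saline 3d 9, against 5.24%, and 7 without MABs allo 3d 4, against 10.7%. Without saline 3d 10 it was 18, against 7.72%. When only the 2 groups were fitted, with the spread estimated from 8 samples, limma called no member, and 0.0304% of all genes were called. The 11 calls used the spread of all 6 groups. By edgeR on the reads recovered from the table, 6 members were called, namely Neb, Mybpc1, Myom1, Myom2, Cacna1s and Ryr1, against 5.29% of all genes called higher. DESeq2 on the same reads called 11, with Ckm in place of Tnnt1, against 8.65%. Scaling the samples to the same total moved the median log2 fold change of all genes from 0.07 to -0.21 and that of the members from 1.34 to 1.06, and 7 members were called, against 8.81% of all genes. Over all genes, 1531 were called higher and 466 lower as reported, 1257 of 2298 calls were higher with the same total and 862 of 1342 by edgeR. The groups did not overlap, with MABs allo higher, in 5 members, against 9.44% of all genes.

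Library composition moved with the cell groups at 3d. AY172581.24, a gene of the mitochondrial genome record that was named after its values were seen, was the most abundant gene in 8 libraries: the 4 of MABs allo 3d, at 12.1 to 20.7% of the signal, MABs allo-VEGF 3d 1, 2 and 3, at 15.6 to 20.6%, and saline 3d 6, at 7.31%. It held 3.46% in MABs allo-VEGF 3d 4, 0.409 to 2.11% in the other 3 saline 3d libraries, and at most 1.14% in the 12 libraries of 7d. The summed signal of 33 Metazoa_SRP genes, copies of the signal recognition particle RNA, was 526 to 17245 in MABs allo 3d, 638 to 5342 in MABs allo-VEGF 3d 1, 2 and 3 and 785 in saline 3d 6, and at most 23.4 in each of the other 16 libraries. Within saline 3d, saline 3d 6 was the highest sample in 3 members, Tpm3, Myom2 and Casq2, while Acta1, Tnni2 and Tnnc2 were lowest there. Within MABs allo-VEGF 3d, the lowest Neb, Tpm3, Mybpc1, Myom1, Myom2, Cacna1s and Ryr1 were all in sample 4, which was the lowest in 18 of the 32 members. The part of this composition in the members' values was not tested. Leaving out saline 3d 6 and MABs allo-VEGF 3d 4 was chosen after seeing the data. It left AY172581.24 at 0.409 to 2.11% in saline 3d against 12.1 to 20.7% in MABs allo 3d. Without these 2 libraries, 9 members were called in MABs allo, namely Neb, Tpm3, Tnni1, Mybpc1, Myom1, Myom2, Cacna1s, Ryr1 and Casq2, against 13.8% of all genes.

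**Figure D3:**
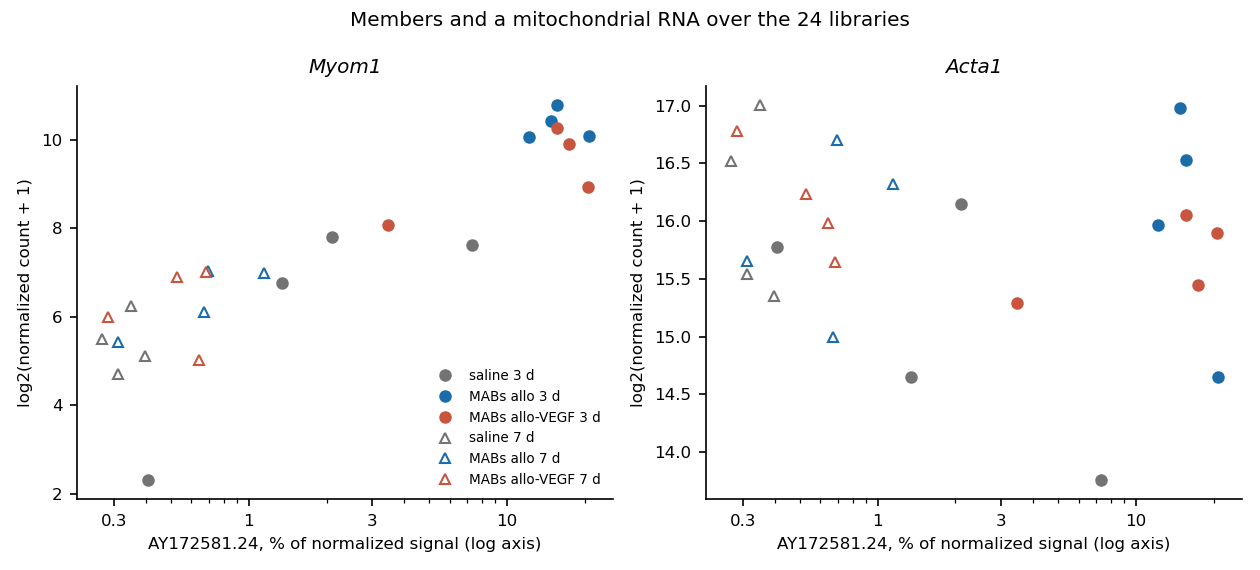
Log2(normalized count + 1) of Myom1 and Acta1 against the share of AY172581.24 in the normalized signal of each of the 24 libraries, in percent on a log axis. Circles are 3d and open triangles 7d, in grey for saline, blue for MABs allo and red for MABs allo-VEGF. The 7 libraries with more than 10% of AY172581.24 hold the 7 highest Myom1 values, 483 to 1763 counts, whereas Acta1 in those 7 libraries runs from 25710 to 129160, across most of its range.

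Other genes of the same structures were also examined in MABs allo at 3d. Of 31 further sarcomere genes tested, 9 were called higher in MABs allo and none lower, with 30 above 0 and a median log2 fold change of 1.20. Among the largest were Synpo2l at 4.27 (adjusted p = 0.0126) and Pdlim5 at 3.05 (adjusted p = 0.00702). Synpo2l rests on at most 13 reads in a sample. The smallest were Myoz3 at -0.54 (adjusted p = 0.8), Hspb7 at 0.05 (adjusted p = 0.934) and Ankrd2 at 0.11 (adjusted p = 0.968). Of 19 further calcium handling genes, 3 were called higher and none lower: Jph2, Cav3 and Jph1. Jph1 and Jph2 encode junctophilins, which hold the T tubule against the sarcoplasmic reticulum. Jph2 gave 258, 0, 0 and 7.04 in saline, 312, 399, 471 and 141 in MABs allo and 108, 233, 257 and 4.45 in MABs allo-VEGF, so that saline 3d 6 lay with the MABs allo samples. Among the smallest of this list were Pln, the phospholamban that restrains the calcium pump, at -0.46 (adjusted p = 0.474), and S100a1 at -0.28 (adjusted p = 0.792). Among 4 myosin heavy chains, the neonatal Myh8 and the embryonic Myh3, both of regenerating fibres, were called at 4.51 (adjusted p = 0.0059) and 2.19 (adjusted p = 0.0431), whereas Myh4 at 1.299 (adjusted p = 0.102) and the slow Myh7 at 1.51 (adjusted p = 0.108) were not.

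Markers of other cell types also differed between MABs allo and saline at 3d. Over all genes, 2.86% were called lower and 9.4% higher. None of 9 macrophage genes had a log2 fold change above 0 and 4 were called lower, with summed levels of 13849 to 26947 in saline and 1456 to 14388 in MABs allo. Of 7 mast cell genes, 6 were called lower, with sums of 620 to 2387 against 246 to 369. Of 6 fibroblast genes, 2 were called lower, with sums of 342793 to 517564 against 56304 to 304450. Of 10 smooth muscle genes, 1 was called higher and none lower, and their sums were 20206 to 215556 in saline and 95880 to 156254 in MABs allo. Of 8 epithelial genes, 1 was called higher. None of 7 adipocyte, 6 nerve and Schwann cell and 5 cardiac genes was called. The 3 most abundant smooth muscle genes, Acta2, Myh11 and Mylk, stood at -0.34 (adjusted p = 0.615), 1.34 (adjusted p = 0.092) and 0.21 (adjusted p = 0.835). The part of these cell types in the members' values was not tested.

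Between MABs allo-VEGF and saline at 3d, limma called no member, against 0.0307% of all genes called higher. Both comparisons at 3d share the saline samples. Of the 32 members, 29 had a log2 fold change above 0, with a median of 0.89 against 0.04 over all genes. An unadjusted p below 0.05 was found in 11 members, against 17.9% of all genes. edgeR called none and DESeq2 called 2, Myom1 and Myom2, against 2.24% of all genes. With all samples, the largest values were again in the M band: Myom2 at 3.45 ± 0.996 (SE), adjusted p = 0.0971, and Myom1 at 3.17 ± 0.81 (SE), adjusted p = 0.0762. Myom1 in all 4 MABs allo-VEGF samples, the lowest of them 267, was above the highest saline sample, and so was Casq2, at 2119.6 against 1725. These were the 2 members whose groups did not overlap, against 2.36% of all genes. The log2 fold changes of Mybpc2, Des and Pvalb were the smallest, at -0.38, -0.27 and -0.22. Without the 4 libraries with high Actn3 and Mybpc2, described below, Mybpc2 stood at 0.48 and Pvalb at 0.92. There Myoz1, close to the limit of detection, was the largest at 2.33, with Myom2 at 2.15 and Myom1 at 1.90. Tpm3 at 1.42 (adjusted p = 0.0938), Neb at 1.57 (adjusted p = 0.123) and Ryr1 at 1.31 (adjusted p = 0.109) were among the others.

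That count turned on 2 libraries, saline 3d 6 and MABs allo-VEGF 3d 4, and leaving them out was chosen after seeing the data. Without them, AY172581.24 held 0.409 to 2.11% of the signal in saline 3d and 15.6 to 20.6% in MABs allo-VEGF 3d. Treatment and this composition then cannot be told apart. Without saline 3d 6 and MABs allo-VEGF 3d 4, 6 members were called higher, against 11.4% of all genes. They were Myom2 at 4.78 ± 1.05 (SE), adjusted p = 0.00378, Myom1 at 4.08 ± 0.90 (SE), adjusted p = 0.00388, Tpm3 at 2.23 ± 0.33 (SE), adjusted p = 0.000237, Neb at 1.73 ± 0.56 (SE), adjusted p = 0.0398, Casq2 at 1.60 ± 0.48 (SE), adjusted p = 0.0253, and Ryr1 at 1.46 ± 0.45 (SE), adjusted p = 0.0301. Leaving out only saline 3d 6 gave 4 members, Tpm3, Myom1, Myom2 and Casq2, against 6.29% of all genes. Leaving out only MABs allo-VEGF 3d 4 gave 6, with Mybpc1 in place of Casq2, against 6.7%. With a pseudocount of 5 in place of 1, 1 member was called, Myom1, against 1.09%.

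MABs allo-VEGF and MABs allo were compared directly at 3d. Limma called no member, and 0.00614% of all genes. Neither edgeR nor DESeq2 called a member there. By limma 1 member had an unadjusted p below 0.05, against 6.13% of all genes, and 3 members did by edgeR and 4 by DESeq2. The log2 fold change was below 0 in 29 of 32 members, with a median of -0.41 against -0.03 over all genes. On leaving out 1 sample this median was lowest without MABs allo 3d 1, at -0.85 with 0 members above 0. It was highest without MABs allo 3d 4, at -0.17 with 9 above 0. Cacna1s and Mybpc1 were the 2 members whose samples did not overlap, lower in MABs allo-VEGF, against 0.774% of all genes, with log2 fold changes of -1.96 ± 0.96 (SE), adjusted p = 0.811, and -0.98 ± 0.47 (SE), adjusted p = 0.807. In Cacna1s the nearest samples were 166 and 179.

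At 7d limma called no gene between treatments. The comparisons of MABs allo with saline, of MABs allo-VEGF with saline and of MABs allo-VEGF with MABs allo each called 0% of all genes by limma, and neither edgeR nor DESeq2 called a member in any of the 3. Against saline, the median log2 fold change of the members was 0.28 in MABs allo, with 23 of 32 above 0. At an unadjusted p below 0.05 there was 1 member, against 6.23% of all genes. In MABs allo-VEGF the median was 0.39, with 26 above 0 and 0 below that p, against 6.34% of all genes. Between the cell groups the median was 0.18, with 24 above 0 and 0 below that p, against 2.78% of all genes. These medians turned on single samples: MABs allo against saline had -0.06, with 14 above 0, without saline 7d 3, and 0.04 without MABs allo 7d 9, and MABs allo-VEGF against MABs allo had -0.09, with 10 above 0, without MABs allo 7d 7.2. Tpm3 counts at 7d were 463, 585, 549 and 525 in saline, 942, 1215, 677 and 1208 in MABs allo and 755, 536, 438 and 583 in MABs allo-VEGF. All 4 MABs allo samples exceeded the saline samples, and the log2 fold change was 0.89 ± 0.40 (SE), adjusted p = 0.783. Des gave 19033, 23971, 16189 and 24197 in saline, 25839, 26109, 37860 and 32092 in MABs allo and 26525, 35068, 16274 and 17524 in MABs allo-VEGF. Here too MABs allo lay above saline, at 0.55 ± 0.45 (SE), adjusted p = 0.938. These 2 members were the ones without overlap, against 3.24% of all genes. Myom1 gave 74.4, 24.9, 33.5 and 44.0 in saline, 68.1, 126, 41.7 and 129 in MABs allo and 127, 117, 62.1 and 31.5 in MABs allo-VEGF. Its log2 fold changes of 1.0003 (adjusted p = 0.938) in MABs allo and 0.84 (adjusted p = 0.92) in MABs allo-VEGF did not pass the test.

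The other extremes at 7d were as follows. Ckm gave 10871, 4478, 3744 and 6609.7 in saline, 4476, 15182, 5478 and 14741 in MABs allo and 7759, 13167, 13288 and 8956 in MABs allo-VEGF. All 4 MABs allo-VEGF samples were above 3 of the 4 saline samples and 2 were above all 4, and the log2 fold change was 0.83 ± 0.54 (SE), adjusted p = 0.842. Mb gave 9062, 3298, 3269 and 6509 in saline, 2140.4, 5834, 3485 and 7018 in MABs allo and 4611, 6267, 5927 and 3351 in MABs allo-VEGF. Myl1 gave 77298, 28320, 29164 and 52818 in saline, 18985, 52731, 32767 and 55594 in MABs allo and 31494, 39389, 63115 and 36636 in MABs allo-VEGF. In Mb and Myl1 the highest sample of the 12 was saline 7d 1, and the log2 fold changes in MABs allo were -0.26 and -0.22. Smpx gave 2628, 1108, 636 and 2509 in saline, 564, 1606, 1274 and 2233 in MABs allo and 911, 1555, 1812 and 1163 in MABs allo-VEGF. Tpm2 gave 45480, 50302, 29261 and 54994 in saline, 38843, 47413, 43984 and 32599 in MABs allo and 33754, 58965, 39055 and 33711 in MABs allo-VEGF. Both overlapped between all groups, with log2 fold changes in MABs allo-VEGF of -0.16 and -0.12. Myoz1 had at most 2 reads in a saline 7d sample, 3 in MABs allo and 8 in MABs allo-VEGF, and no fold is given for it.

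Among the MABs allo-VEGF samples of 7d, the labels mark 2 of 4 with recovery. Limma called 0% of all genes between these 2 and the other 2, and no member. An unadjusted p below 0.05 was found in 0 members, against 2.72% of all genes. Of the 32 log2 fold changes, 16 were above 0 and 16 at or below it, with a median of 0.04 against 0.00353 over all genes. Without 1 of the 4 samples the median ran from -0.42, without MABs allo-VEGF 7d 12, to 0.34, without MABs allo-VEGF 7d 11.

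The days were also compared within each arm. In saline, limma called no member between the days, against 3.19% of all genes. An unadjusted p below 0.05 was found in 4 members, against 18.8% of all genes. The log2 fold change of 3d against 7d was below 0 in 22 of 32 members, with a median of -0.55 against 0.05 over all genes. Mb stood at -1.31 ± 0.55 (SE), adjusted p = 0.194, and Tnni2 at -1.05 ± 0.51 (SE), adjusted p = 0.271. Tnni2 at 7d gave 38833, 15115, 14080 and 24401 in saline, 10132, 25331, 17827 and 29594 in MABs allo and 17819, 24448, 28312 and 18526 in MABs allo-VEGF. In the other direction Tpm3 stood at 1.24 ± 0.40 (SE), adjusted p = 0.0847, and Cacna1s at 2.03 ± 0.96 (SE), adjusted p = 0.253. edgeR and DESeq2 each called 1 member between the saline days, Tpm3 in both, against 5.18% and 7.15% of all genes called higher. Leaving out saline 3d 8 gave 2, Tpm3 and Myom1, against 6.76%.

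In MABs allo, 7 members were called higher at 3d than at 7d, namely Neb, Tpm3, Mybpc1, Myom1, Myom2, Cacna1s and Ryr1, against 17% of all genes. Cacna1s at 7d was 3.10, 16.6, 11.7 and 20.8, a log2 fold change of 4.94 ± 0.96 (SE), adjusted p = 0.000633. Myom2 at 7d was 12.4, 16.6, 5.004 and 16.6, a log2 fold change of 4.88 ± 0.996 (SE), adjusted p = 0.000923. Neither gene exceeded 22.8 counts in any library of 7d. Myom1 stood at 3.95 ± 0.81 (SE), adjusted p = 0.000993, Mybpc1 at 2.14, Neb at 2.09, Tpm3 at 1.85 and Ryr1 at 1.60. All 7 kept the call in each of the 8 fits without 1 sample, and in all 7 the 3d samples lay above the 7d samples, against 17.7% of all genes. Des was the 1 member called lower at 3d, at -1.301 ± 0.45 (SE), adjusted p = 0.0306, against 6.05% of all genes. The Des call was lost in 4 of the 8 fits without 1 sample and by DESeq2, and its 3d and 7d samples overlapped. The share of AY172581.24 and the Metazoa_SRP signal were also higher at 3d than at 7d in all 4 MABs allo samples, and their part in these values was not tested.

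In MABs allo-VEGF, 4 members were called higher at 3d than at 7d and none lower, against 13.1% of all genes called higher. Tpm3 had 2.56 ± 0.40 (SE), adjusted p = 0.000258, and at 7d lay at 755, 536, 438 and 583. Cacna1s had 3.88 ± 0.96 (SE), adjusted p = 0.00626, Myom2 3.55 and Myom1 3.07. Each of the 4 genes was above its 7d range in all 4 samples of 3d, against 13.8% of all genes. Ckm was below its 7d range in all 4 samples of 3d and was not called, at -0.95 ± 0.54 (SE), adjusted p = 0.226. Myom2 lost the call without MABs allo-VEGF 7d 12, at an adjusted p of 0.0571. Whether the difference from saline changed between the days was tested as an interaction: limma called 0% of all genes and no member in either cell arm. An unadjusted p below 0.05 was found in 10 members in MABs allo, against 13.6% of all genes, and in 1 in MABs allo-VEGF, against 8.23%. Neither edgeR nor DESeq2 called a member. Without saline 3d 6 and MABs allo-VEGF 3d 4, Tpm3 passed in MABs allo-VEGF at 2.13 ± 0.43 (SE), adjusted p = 0.0125, against 3.59% of all genes. Leaving out these 2 libraries was chosen after seeing the data and set treatment and AY172581.24 share at 3d on the same split.

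Mybpc2 and Actn3 followed 4 libraries rather than the groups. Mybpc2 had 1257 to 1411 counts in saline 3d 8, MABs allo 3d 4, MABs allo 7d 9 and MABs allo-VEGF 7d 11 and was at most 355 in the other 20. At 7d its counts were 216, 149, 144 and 339.6 in saline, 192, 1324, 355 and 336 in MABs allo and 258, 74.2, 1257 and 167 in MABs allo-VEGF. Actn3 had 1036 to 1666 in the same 4 libraries and was at most 544 elsewhere. At 7d its counts were 199.6, 99.6, 188 and 233 in saline, 198, 1666, 158 and 544 in MABs allo and 189, 128, 1297 and 233 in MABs allo-VEGF. These libraries come from 4 groups, 1 sample in each. Of the 16287 genes, 3 had all 4 libraries above the other 20: these 2 members and Lhx2, which was near the limit of detection. The libraries were picked because of these values, so this is a description. Pvalb was highest in MABs allo-VEGF 7d 11 and in saline 3d 8, with 2884, 639, 10151 and 902 in MABs allo-VEGF at 7d, 3541, 1259.5, 2197 and 3214 in saline and 935, 1815, 1878 and 1847 in MABs allo, and so did not follow all 4. MABs allo-VEGF 7d 11 and saline 3d 8 also had the highest summed nerve and Schwann cell markers, at 62401 and 33430.5. The next highest sum was 18766.5, in MABs allo 7d 13. The part of nerve RNA in the Pvalb values was not tested. Tnnt3, Tnni2 and Myl1 in the 4 libraries were within the range of the other 20. Not all fast fibre genes were. Casq1 in MABs allo 3d 4, MABs allo 7d 9 and MABs allo-VEGF 7d 11 exceeded all of the other 20. In saline 3d 8 Casq1 was within their range. Myh4 was 72811 in MABs allo 3d 4, above the other 20, and within their range in the rest of the 4 libraries.

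**Figure D4:**
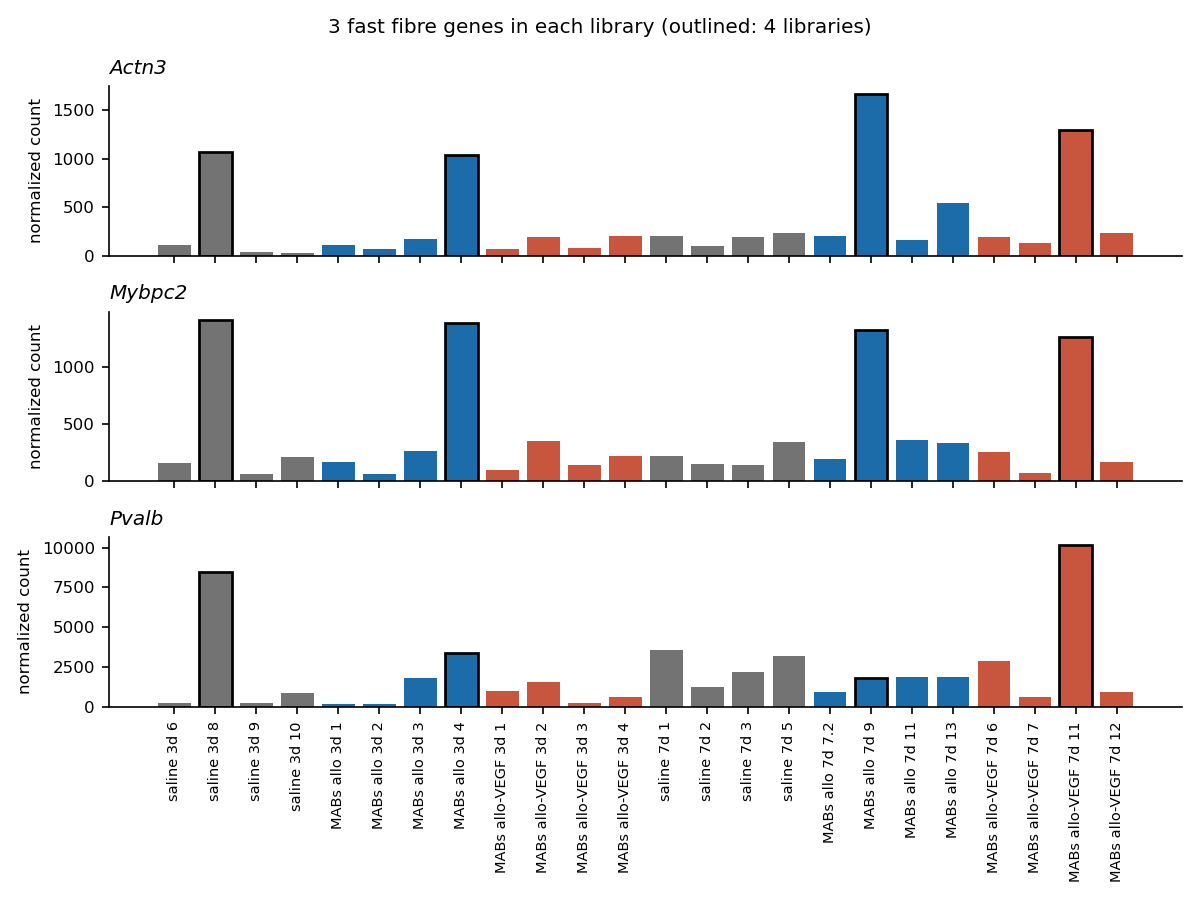
Normalized counts of Actn3, Mybpc2 and Pvalb in each of the 24 libraries, in grey for saline, blue for MABs allo and red for MABs allo-VEGF, with bars from 0. The 4 outlined libraries hold the 4 highest values of Actn3 and of Mybpc2, while in Pvalb saline 3d 8 at 8498 and MABs allo-VEGF 7d 11 at 10151 stand above all others.

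Leaving out these 4 libraries, an alternative chosen after seeing the data, left 4 members called in MABs allo at 3d, Mybpc1, Myom1, Myom2 and Ryr1, against 3.93% of all genes. Between the saline days it gave 4 calls where there had been none, against 8% of all genes. Tpm3 and Myom1 were then higher at 3d, at 1.74 ± 0.35 (SE), adjusted p = 0.00265, and 2.01 ± 0.56 (SE), adjusted p = 0.0264. Actn3 and Pvalb were lower at 3d, at -1.88 ± 0.55 (SE) and -2.73 ± 0.76 (SE). Saline 3d 8, the only saline library left out, was picked for its high Actn3 and was also the highest saline 3d sample of Pvalb. The choice of libraries thus lowered both genes at 3d, and their p-values are no test of a difference between the days. With all samples, the log2 fold change between the saline days was -0.75 ± 0.97 (SE), adjusted p = 0.738, for Actn3. For Pvalb it was -1.59 ± 1.04 (SE), adjusted p = 0.436.

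The fast to slow ratio of 5 isoform pairs was compared as the question of fibre type within these genes. A ratio within a sample shows unequal levels of both genes and not which of them changed. Fast and slow here follow the names of the isoforms. Mybpc1 exceeded Mybpc2 in every library, although the fast Myh4 exceeded the slow Myh7 in every library. Whether each ratio follows fibre type was not tested. At 3d the log2 ratio of Tnni2 to Tnni1 was 2.64 ± 1.19 (SD, n = 4) in saline, 2.06 ± 0.48 in MABs allo and 1.92 ± 0.31 in MABs allo-VEGF. At 7d it was 3.41 ± 0.27, 3.12 ± 0.46 and 3.05 ± 0.42. MABs allo ranged from 1.52 to 2.64 at 3d and from 2.57 to 3.69 at 7d. MABs allo-VEGF ranged from 1.55 to 2.23 at 3d and from 2.74 to 3.65 at 7d, without overlap. Saline 3d alone spanned 1.52 to 4.31. The ratio of Mybpc2 to Mybpc1 had the largest difference of the 25, with -3.25 ± 1.68 in saline, -5.38 ± 1.53 in MABs allo and -4.88 ± 1.17 in MABs allo-VEGF at 3d. Its difference between MABs allo and saline was -2.13, with an exact permutation p of 0.114, and saline 3d 8 was the highest of the 12 samples. For troponin T, Tnnt3 to Tnnt1, the values at 7d were 1.48 ± 0.34 in saline, 0.85 ± 0.42 in MABs allo and 1.23 ± 0.86 in MABs allo-VEGF. The difference of -0.63 between MABs allo and saline gave the smallest exact p of all, 0.0571. For troponin C, Tnnc2 to Tnnc1, the means at 3d were 3.82 in saline, 3.05 in MABs allo and 2.92 in MABs allo-VEGF, and for calsequestrin, Casq1 to Casq2, -0.0362, -0.39 and -0.69. Over the 25 two-sided exact permutation tests, none had a raw p below 0.05 and the smallest Benjamini-Hochberg adjusted p was 0.714. The tests took 5 pairs in 5 comparisons: each cell group against saline on each day, and the saline days. The days within the cell arms were not tested. The smallest p that 4 against 4 samples allow is 0.0286. A single test at that limit could not pass 0.05 after adjustment over the 25. The adjusted values therefore cannot decide whether a ratio differed. Within saline 3d, saline 3d 8 had the highest ratio in all 5 pairs.

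**Figure D5:**
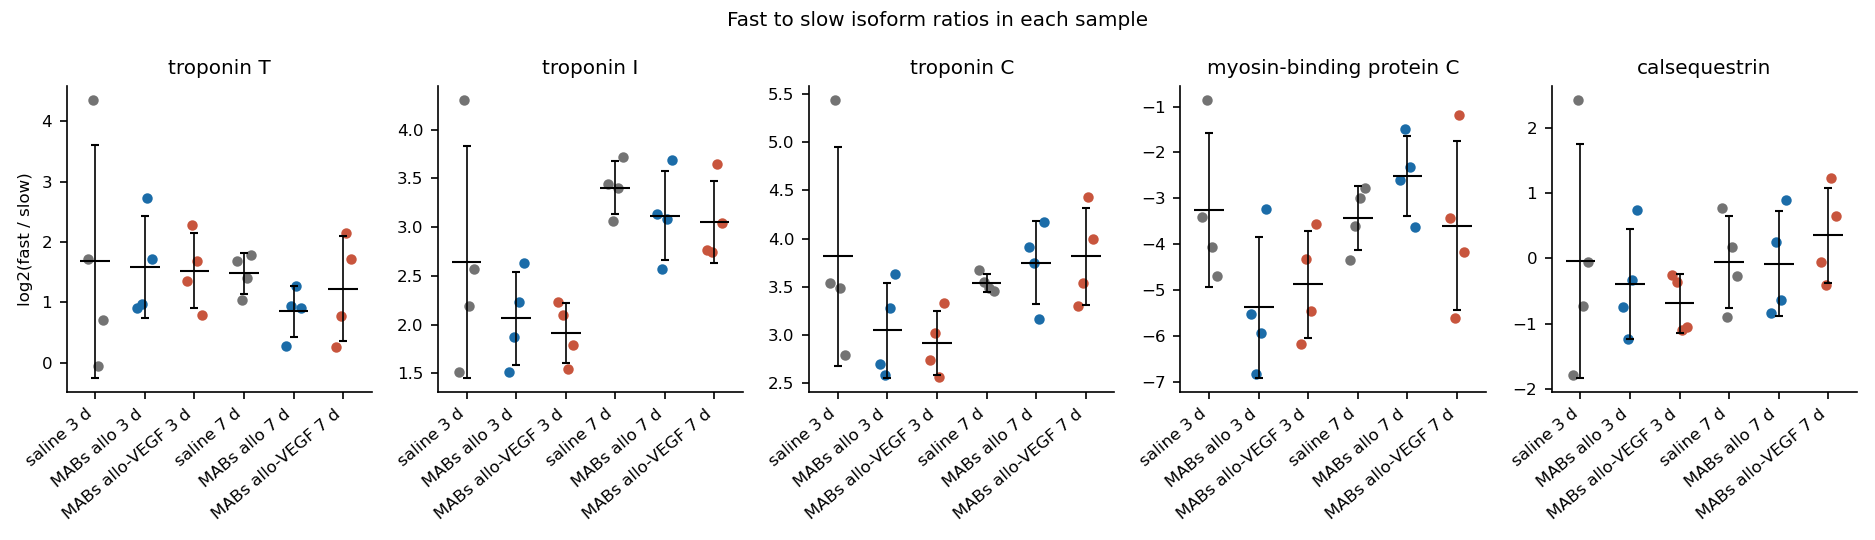
Log2 ratio of the fast to the slow isoform in each of the 24 samples for troponin T, troponin I, troponin C, myosin-binding protein C and calsequestrin. Points are samples, the horizontal line is the group mean and the bar is 1 SD (n = 4), in grey for saline, blue for MABs allo and red for MABs allo-VEGF. No difference among the 25 tested passed, which no single test could do after adjustment, and the days within the cell arms were not tested. Saline 3d has the widest bars for troponin T, troponin I, troponin C and calsequestrin.

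The samples of a group differed in the level of the members as a whole. The summed level of the 32 members spanned 3.20-fold in saline 3d, 3.49-fold in MABs allo 3d, 1.78-fold in MABs allo-VEGF 3d, 2.51-fold in saline 7d, 2.15-fold in MABs allo 7d and 1.48-fold in MABs allo-VEGF 7d. Saline 3d 10 had the highest value of its group in 24 of 32 members and MABs allo 3d 1 the lowest in 25. Saline 7d 1 was highest in 23 and saline 7d 3 lowest in 23, and MABs allo 7d 7.2 was lowest in 22. At 7d the slow troponins showed the same spread: Tnni1 gave 3579, 1807, 1336 and 1846 in saline, 1149, 4278, 2105 and 2299 in MABs allo and 2619, 3657, 2256 and 2251 in MABs allo-VEGF. Tnnt1 gave 10144, 6084, 4464 and 6531 in saline, 6976, 15639, 7108 and 12815 in MABs allo and 14035, 14456, 7734 and 6424 in MABs allo-VEGF. Tnnt3, its fast partner, gave 32769, 12476, 11842 and 22555 in saline, 8468, 30013, 17259 and 24145 in MABs allo and 16919, 24671, 34437 and 21266 in MABs allo-VEGF. In all 3 genes saline 7d 3 was the lowest saline sample. Tnnc1 gave 3311, 1899, 1721 and 2824 in saline, 1657, 3255, 2452 and 2747 in MABs allo and 2782, 4196, 1579.6 and 1797 in MABs allo-VEGF. Tnnc2 gave 42294, 22216, 19374 and 31008 in saline, 25074, 43642, 22053 and 49664 in MABs allo and 27450, 48785, 34050 and 28623 in MABs allo-VEGF. Mybpc1 gave 4444, 1835, 1152 and 2346 in saline, 1177, 3732, 1779.9 and 4171 in MABs allo and 2779, 3668, 2846 and 3019.9 in MABs allo-VEGF. Of these, MABs allo 7d 7.2 was the lowest MABs allo sample in Tnnc1 and Mybpc1 and MABs allo 7d 11 in Tnnc2. Casq1 gave 2865, 933, 1129 and 1641 in saline, 789.9, 2937, 1073 and 2768 in MABs allo and 1389, 2099, 3262 and 2538 in MABs allo-VEGF. Casq2 gave 1681, 1738, 998 and 1987 in saline, 1406, 2457, 1672 and 1494 in MABs allo and 1444, 2798, 1393 and 1614 in MABs allo-VEGF. In both calsequestrins the 3 groups overlapped. Over the 24 libraries, the members given only by fold change ranged from 665 to 5207 for Actn2, 747 to 5366 for Ldb3, 85.8 to 1187 for Xirp1, 3684 to 31735 for Trdn and 107 to 928 for Ampd1.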

How the data were processed

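RNA from 24 rat urethra samples was sequenced by QuantSeq 3' mRNA-seq as single-end reads of 50 bases. Per the study's methods, the authors aligned reads to Rnor6.0 with HISAT2, counted them per gene with HTSeq and normalized them with DESeq2. The deposited values are gene counts divided by size factors, a normalized signal and not raw counts. They were whole multiples of 1 read, within 0.001, for 100% of values, 1 read being worth 1.67 to 9.23. Depth limits the precision of low genes, and counting intervals were not used.

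Groups came from the sample labels. Genes with a mean below 2 were left out, and log2(normalized count + 1) was tested with limma 3.58.1 in R 4.3.3, with a mean-variance trend, 6 groups of 4 in 1 fit and Benjamini-Hochberg adjustment over 16287 genes. For MABs allo against saline at 3d, DESeq2 1.42.0 on the recovered reads called 1920 genes and edgeR 4.0.16 called 1342, against 1531 higher and 466 lower by limma. Isoform ratios were tested by exact permutation. The test scripts were tested on simulated data. Promoter windows came from RefSeq.

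The members and lists were chosen with earlier results of these data known. All sample values were given for the 3 members with the largest and the 3 with the smallest log2 fold change in each comparison of a cell group with saline and in saline 3d against 7d, and for both genes of each isoform pair. Neb, Ryr1, Acta1 and Mylpf were added after their values were seen. Other genes came from the lists, as the myosin heavy chains, the 3 most abundant smooth muscle genes and the 3 largest rises and falls of the 2 muscle lists, except AY172581.24, Metazoa_SRP, Lhx2 and the check of smooth muscle and cardiac markers. Of the genes this rule names, 2 are not reported here. The alternatives were another pseudocount and filter, no filter, scaling to the same total, only the groups compared, DESeq2, edgeR, a replicate block and leaving out samples.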

Additional observations from a re-analysis of the deposited data

Results flagged for a closer look

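In 10 of the 192 groups of 4 samples examined, 6 groups for each of the 32 members, the highest or lowest sample stood apart from the others on the log2 scale, by Dixon's test of its gap to the nearest sample over the whole range. Chance flags about 1 in 20 groups. MABs allo 3d 1 was the lowest of its group in 3 of them: Tnni1, with 2137 counts against 5444 in the next sample and a ratio of 0.902, Mylpf, with 12603 against 55649 and a ratio of 0.954, and Ampd1, with 142 against 651 and a ratio of 0.853. MABs allo-VEGF 3d 4 was the lowest in 2: Mybpc1, with 2574 against 6226 and a ratio of 0.865, and Myom2, with 44.5 against 227 and a ratio of 0.918. In Ldb3, MABs allo-VEGF 3d 1 was the highest, with 3196 against 2235 and a ratio of 0.893. In Pvalb, MABs allo 7d 7.2 was the lowest, with 935 against 1815 and a ratio of 0.95. The other 3 were in Myoz1, near the limit of detection: saline 3d 10 with 14.1 counts and saline 7d 2 with 4.98 were the only samples of their groups above 0, each with a ratio of 1, and MABs allo 7d 11 with 0 was below 9.29, with a ratio of 0.897.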

How the results depend on the processing

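The count of 11 members called in MABs allo against saline at 3d was 6 by edgeR, 7 with samples scaled to the same total, 4 without the 4 libraries with high Actn3 and Mybpc2, and 0 when only the groups compared were fitted; it ran from 5 to 18 without 1 sample. In MABs allo-VEGF against saline at 3d the count of 0 became 2 by DESeq2, 1 with a pseudocount of 5 and 6 without saline 3d 6 and MABs allo-VEGF 3d 4, and ran from 0 to 6 without 1 sample. Between the saline days it became 1 by DESeq2, 1 by edgeR and 4 without the 4 libraries, and ran from 0 to 2 without 1 sample. The interaction in MABs allo-VEGF gave 1 without saline 3d 6 and MABs allo-VEGF 3d 4. Without 1 sample, the counts ran from 7 to 10 in MABs allo 3d against 7d and from 3 to 5 in MABs allo-VEGF 3d against 7d. The cause of these changes was not tested. No fold change of a called member changed sign under the alternatives run. Mybpc2, Pvalb and Des at 3d were among the members not called that changed sign, each on leaving out samples as given above. At 7d the median of the members changed sign in the same way in MABs allo against saline and between the cell groups. It also did so between the samples marked recovery and the others. Leaving out the 4 libraries was an alternative chosen after seeing the data, and so was leaving out saline 3d 6 and MABs allo-VEGF 3d 4.

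Of the groups compared, the 2 cell groups of 3d share all 4 replicate numbers, the 2 cell groups of 7d share 1, and no other compared groups share any. The deviations of same-numbered samples correlated at 0.222, 0.151, 0.073 and 0.254. One of these was not above 0.1, and nothing in the labels ties the numbers to a shared batch, so they were not taken as pairs. As a hint from the data, 3 of the 4 numbers correlated best with their own. With the replicate block, limma called 0 members between the 2 cell groups of 3d, and 4 had an unadjusted p below 0.05, against 1 without it. Over all genes, 6.13% were below that p without the block. One read in the shallowest library was worth 9.23 normalized counts, so values of Myoz1 and of Cacna1s and Myom2 at 7d rest on few reads.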
